A study of Mus musculus with 4 samples.

Results

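The genes of the fibroblast growth factors (FGFs) and their receptors were examined in bulk RNA-seq of granule-cell-enriched (GCE) tissue from the cerebellar vermis of the mouse. They were the 10 genes *Fgf1*, *Fgf2*, *Fgf9*, *Fgf12*, *Fgf13*, *Fgf14*, *Fgfr1*, *Fgfr2*, *Fgfr3* and *Fgfrl1*, chosen by name and found by their NCBI Gene IDs among the 24532 Gene IDs of the deposited tables. There were 2 mice of each genotype, WT and *Kdm3b*+/-, and each mouse gave 1 library. All were adult males, and the WT mice were littermates of the mutants. *Kdm3b* encodes a histone demethylase that acts on lysine 9 of histone H3, and the *Kdm3b*+/- mice carried 1 allele with a gene-trap vector (pGT0lxf) in an intron. They came from a single embryonic stem cell line, were backcrossed to C57Bl/6N and were later crossed to C57Bl/6J. The mutation was present in every cell of the animal. The tissue was dissected manually out of slices of the vermis, whereas the sample labels name the tissue only as cerebellum. The question was whether expression of these genes differed between genotypes in the tissue.

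FGFs that leave the cell bind receptor tyrosine kinases together with heparan sulfate on the cell surface, and the activated receptor recruits adaptors that lead to the RAS and MAP kinase, PI3 kinase and phospholipase C gamma pathways. *Fgf1*, *Fgf2* and *Fgf9* encode such ligands. FGF1 binds all FGF receptors, and FGF9 from granule neurons acts on Bergmann glia, the radial glia of the cerebellar cortex. *Fgf12*, *Fgf13* and *Fgf14* encode FGF homologous factors, which stay inside the neuron and bind the voltage-gated sodium channels in place of FGF receptors. Loss-of-function variants of *FGF14* cause an inherited ataxia in people. *Fgfr1* to *Fgfr3* encode receptor kinases, of which *Fgfr3* is enriched in astrocytes in the brain. *Fgfrl1* encodes a receptor-like protein that binds FGFs and lacks the kinase domain.

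The libraries held between 4.92 and 6.69 gigabases of aligned sequence. Values are given as TPM (a transcript abundance scaled to gene length and to a fixed total per library). Differences are log2 fold changes of TPM + 1 in *Kdm3b*+/- against WT from limma, with the standard error (SE) or the 95% interval, and p-values were adjusted over the 13652 genes whose TPM averaged 1 or more. A gene was called differentially expressed (DEX) when its fold change exceeded 1.2 and its adjusted p was below 0.05. *Kdm3b* itself was at 9.10 and 11.0 TPM in the WT mice and at 8.30 and 7.90 TPM in the *Kdm3b*+/- mice, so that the groups did not overlap, but the difference of -0.27 (SE 0.17) did not pass the test (limma adjusted p = 0.424). The value covers exons on both sides of the vector. By Western blot, the paper reported significantly less KDM3B protein in the vermis and the flocculus of the mutants. Markers of granule cells were abundant in every library, with a sum over the 8 genes of at least 4404 TPM. The 8 Purkinje cell markers summed to 1409 TPM in WT mouse 1, 548 TPM in WT mouse 2, and 753 and 622 TPM in the *Kdm3b*+/- mice 1 and 2, so WT mouse 1 stood apart. Without it, the log2 fold changes of *Fgfr3*, *Fgf1* and *Fgf13* were -1.05, -0.57 and -0.63.

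Promoters are shown for the 3 receptor genes found in a RefSeq promoter table of GRCm38.p6, because *Fgfr3* had the largest difference between genotypes among the 9 genes tested, and *Fgfr2* and *Fgfrl1* had small ones. None of the 3 differences passed the test. Each is the 250 bases before a start site, for *Fgfr3* the first of its 2 listed sites, written 5′ to 3′ on the strand of the gene. Capitals mark the GC box, GGGCGG or its reverse complement CCGCCC. The first *Fgfr3* window lies at chr5:33721474-33721723 on the forward strand, the *Fgfr2* window at chr7:130266809-130267058 on the reverse strand and the *Fgfrl1* window at chr5:108693979-108694228 on the forward strand.
Fgfr3: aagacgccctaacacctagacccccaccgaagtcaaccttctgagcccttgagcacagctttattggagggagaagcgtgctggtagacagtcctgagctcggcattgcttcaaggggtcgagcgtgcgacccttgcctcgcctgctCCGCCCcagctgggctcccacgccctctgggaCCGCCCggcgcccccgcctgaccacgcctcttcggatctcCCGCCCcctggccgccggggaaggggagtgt
Fgfr2: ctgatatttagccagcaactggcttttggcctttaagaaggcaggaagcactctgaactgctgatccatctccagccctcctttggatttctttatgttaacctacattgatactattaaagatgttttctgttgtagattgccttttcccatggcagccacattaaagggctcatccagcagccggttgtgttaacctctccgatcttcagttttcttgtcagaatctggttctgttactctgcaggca
Fgfrl1: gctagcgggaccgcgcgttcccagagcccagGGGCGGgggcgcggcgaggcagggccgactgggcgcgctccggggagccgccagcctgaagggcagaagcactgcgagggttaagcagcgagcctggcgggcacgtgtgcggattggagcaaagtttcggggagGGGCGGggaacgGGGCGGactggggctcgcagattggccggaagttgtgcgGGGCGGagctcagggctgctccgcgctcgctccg
The first *Fgfr3* window held 3 GC boxes and 19 CpG dinucleotides at 66.8% GC, and the second, at chr5:33722056-33722305, held 2 GC boxes and 24 CpG at 72.8% GC. The *Fgfr2* window held 0 GC boxes and 2 CpG at 44.0% GC, and the *Fgfrl1* window held 4 GC boxes and 30 CpG at 73.6% GC. In the GENCODE annotation of GRCm38, protein-coding transcripts of *Fgfr3*, *Fgfr2* and *Fgfrl1* begin at 10, 5 and 4 first-exon starts. The windows therefore do not stand for every start of these genes. Of all 32851 promoters in the table, 32.7% held a GC box and 8.47% held 3 or more, and the median was 6 CpG and 52.4% GC. For the 10 genes, the count covered 15 windows of 8 of them. *Fgfr1* had no entry in the promoter table, and *Fgf1* was not included in the count. Of these 15 windows, 10 held a GC box. The letters TATAAA, on the gene's strand or the other, were in 0 of the 15 and in 12.4% of all promoters. A match of letters is a description of the window and no evidence of binding.

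**Figure D1:**
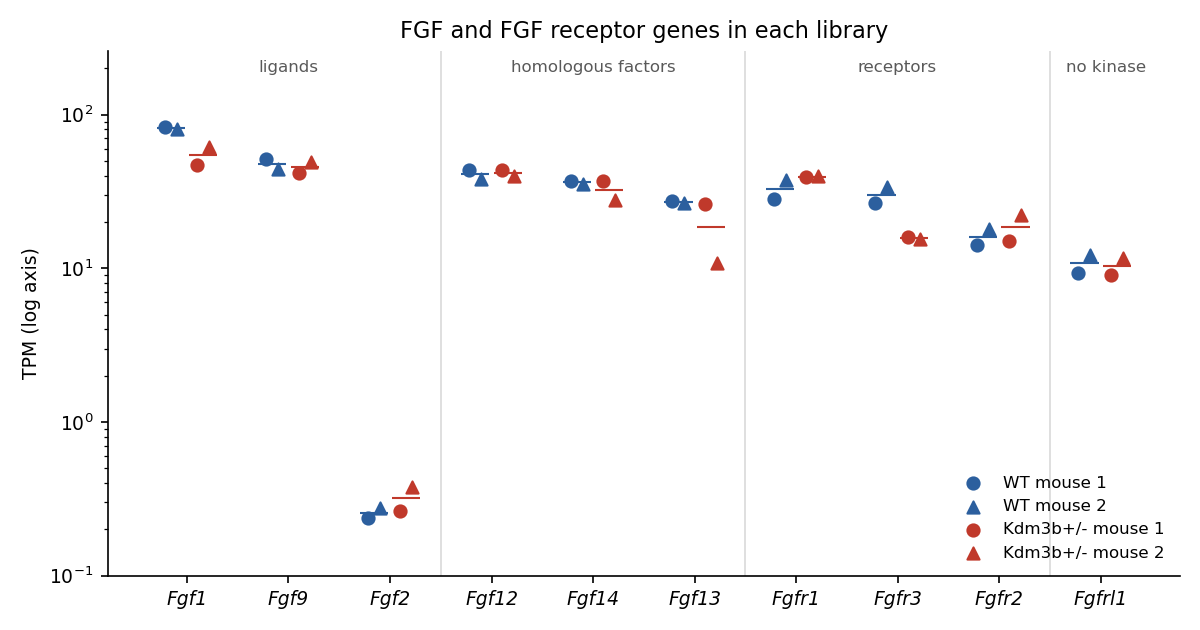
TPM of the 10 genes (vertical log axis) in each library, grouped by role along the horizontal axis. Circles are mouse 1 and triangles mouse 2 of each genotype, WT in blue and *Kdm3b*+/- in red, and horizontal lines are group means. Both *Kdm3b*+/- mice lie below both WT mice for *Fgfr3* and *Fgf1*, and *Kdm3b*+/- mouse 2 stands alone at 10.9 TPM for *Fgf13*.

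All genes but *Fgf2* were expressed at between 9.02 and 82.4 TPM. *Fgf1* had the highest mean over the 4 libraries at 67.8 TPM, followed by *Fgf9* at 46.6, *Fgf12* at 41.3, *Fgfr1* at 36.1, *Fgf14* at 34.4, *Fgfr3* at 22.9, *Fgf13* at 22.8, *Fgfr2* at 17.3 and *Fgfrl1* at 10.5 TPM. *Fgf2* was last at 0.288 TPM. The mean read depth over the gene was between 20.6 and 199 in each library for the other 9 genes, and between 0.525 and 1.15 for *Fgf2*. The ranges of neighbours in this order overlapped, except that *Fgfr2* lay above *Fgfrl1* and *Fgfrl1* above *Fgf2* without overlap. *Fgf1* exceeded *Fgf9*, *Fgf12* exceeded *Fgfr1*, and *Fgf14* exceeded *Fgfr3* within each of the 4 libraries, although their ranges overlapped.

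None of the 9 genes tested was a DEX gene (0 of 9), against 63 of all tested genes (0.461%), of which 47 were lower in *Kdm3b*+/- mice (0.344%). At an unadjusted p under 0.05, 2 genes were lower, *Fgfr3* and *Fgf1*, against 17.0% of all tested genes in either direction. The genotypes did not overlap for 4 of the 9 genes, *Fgf1*, *Fgf13*, *Fgfr3* and *Fgfr1*, or 44.4%, against 51.3% of all tested genes. The first 3 were lower in *Kdm3b*+/- mice, against a background of 32.0%, and *Fgfr1* was higher, against 19.2%. The 9 genes had a median log2 fold change of -0.08, beside -0.07 over all tested genes. With DESeq2 on these same samples, the study had called both *Fgf1* and *Fgfr3* lower at an adjusted p below 0.05, unlike here. The direction of the 2 genes here is therefore not independent evidence. The study called many more genes over the whole data than the 63 here, so the difference in calls was not confined to these 2 genes. Its stated criterion was a log2 fold change above 1.2, whereas a fold change above 1.2 was used here. The study's RT-qPCR of *Fgf1* in GCE samples from independent groups of mice showed the same tendency without reaching significance.

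**Figure D2:**
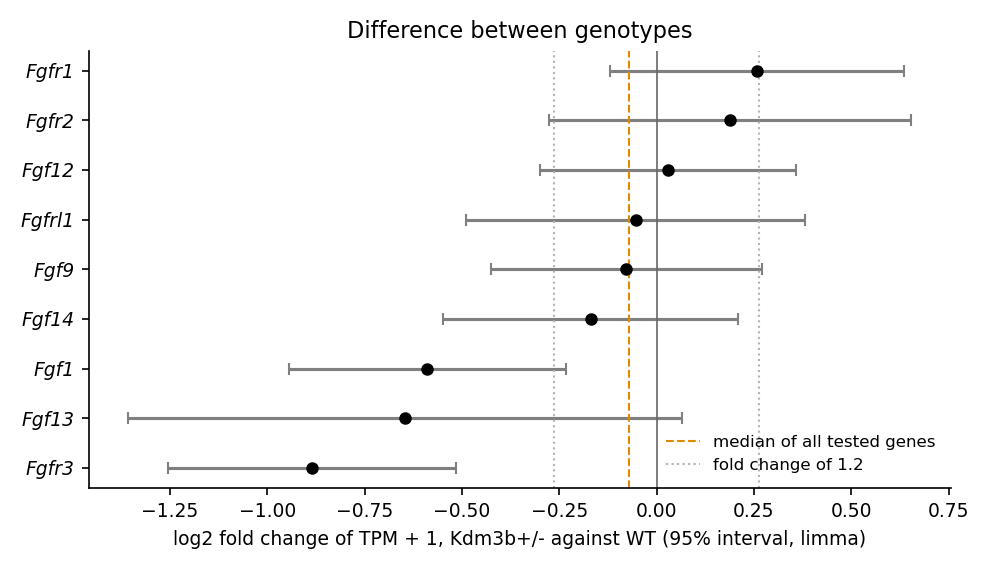
Log2 fold change of TPM + 1 in *Kdm3b*+/- against WT mice (horizontal axis) for the 9 genes tested, with the 95% interval from limma (n = 2 mice per genotype). The solid line marks 0, the dashed line the median of all tested genes at -0.07, and the dotted lines a fold change of 1.2. The intervals of *Fgfr3* and *Fgf1* lie wholly below 0 before adjustment.

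Among the ligands, *Fgf1* on the reverse strand of chromosome 18 (38838673 to 38918699) was at 82.4 and 80.4 TPM in the WT mice and at 47.3 and 61.1 TPM in the *Kdm3b*+/- mice. Both mutants lay below both WT mice, and they were further apart from each other than the WT mice were. The means were 81.4 ± 1.40 and 54.2 ± 9.81 TPM (SD, n = 2 each), a mean 33.4% lower. The log2 fold change was -0.59 (SE 0.16, 95% interval -0.94 to -0.23) and did not pass the test (limma adjusted p = 0.154). *Fgf1* lies 3999303 bases from *Kdm3b* on the same chromosome, and an effect of alleles linked to the trapped gene cannot be told apart from that of the genotype.

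*Fgf9* (chromosome 14, forward strand, 58072686 to 58112720) was at 51.3 and 44.4 TPM in the WT mice and at 41.6 and 49.1 TPM in the *Kdm3b*+/- mice. The groups overlapped, and the log2 fold change of -0.08 had a 95% interval from -0.43 to 0.27 (limma adjusted p = 0.822). *Fgf2* (chromosome 3, forward strand, 37348653 to 37404830) was at 0.237 and 0.277 TPM in the WT mice and at 0.265 and 0.375 TPM in the *Kdm3b*+/- mice, below the minimum for testing. *Fgf1* made up 61.5% and 64.3% of the TPM summed over the 3 ligands in the WT mice, against 53.1% and 55.3% in the mutants. The ratio of *Fgf1* to *Fgf9* was 1.60 and 1.81 in the WT mice, against 1.14 and 1.25 in the mutants. These shares and ratios are descriptions without a test of their own.

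None of the 3 homologous factors passed the test. *Fgf12* (chromosome 16, reverse strand, 28157783 to 28753243) was at 43.5 and 38.3 TPM in the WT mice and at 43.5 and 39.9 TPM in the *Kdm3b*+/- mice. The *Fgf12* groups overlapped, and a log2 fold change of 0.03 had a 95% interval from -0.30 to 0.36 (limma adjusted p = 0.935). *Fgf14* (chromosome 14, reverse strand, 123978291 to 124677127) was at 37.2 and 35.5 TPM in the WT mice and at 37.0 and 28.0 TPM in the *Kdm3b*+/- mice. The *Fgf14* groups overlapped, with a log2 fold change of -0.17 and a 95% interval from -0.55 to 0.21 (limma adjusted p = 0.629).

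*Fgf13* (X chromosome, reverse strand, 59062146 to 59585572) was at 27.5 and 26.7 TPM in the WT mice and at 26.1 and 10.9 TPM in the *Kdm3b*+/- mice. *Kdm3b*+/- mouse 1 was close to the WT mice and *Kdm3b*+/- mouse 2 was far below the other three. The group means were 27.1 ± 0.577 and 18.5 ± 10.8 TPM (SD, n = 2 each), and the log2 fold change of -0.65 (SE 0.31, 95% interval -1.36 to 0.07) did not pass the test (limma adjusted p = 0.330). The difference rested on that 1 library, as it was -0.05 without *Kdm3b*+/- mouse 2 and -1.24 without *Kdm3b*+/- mouse 1 (limma adjusted p = 0.00581). Of all tested genes, 0.725% had 1 library at least 1 log2 unit away from the other three, and 0.0879%, or 12 genes with *Fgf13* among them, had *Kdm3b*+/- mouse 2 that far below, a description chosen after the values were seen. *Fgf13* held 25.4% and 26.5% of their summed TPM in the WT mice, 24.5% in *Kdm3b*+/- mouse 1 and 13.8% in *Kdm3b*+/- mouse 2. *Fgf14* kept between 34.4% and 35.5% in all 4 libraries, and *Fgf12* took 50.7% in *Kdm3b*+/- mouse 2 against 38.1% to 40.8% in the other three. The nearest patterns to *Fgf13* over the 4 libraries, by the root mean square distance of centred log2(TPM + 1), were those of *Max*, *Tbc1d16* and *Sh3bp5*, at distances of 0.14, 0.16 and 0.17, and 0 genes lay within 0.1. *Max* was at 134.9 and 110.9 TPM in the WT mice and at 110.8 and 59.8 TPM in the *Kdm3b*+/- mice. In the GENCODE annotation of GRCm38, *Fgf13* has 6 protein-coding transcripts and its transcripts begin at 5 first-exon starts, and gene-level values do not show which of them differed.

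Among the receptors, *Fgfr3* (chromosome 5, forward strand, 33721724 to 33737068) showed the largest difference of the 9 genes. It was at 26.6 and 33.7 TPM in the WT mice and at 16.0 and 15.5 TPM in the *Kdm3b*+/- mice. Both mutants lay below both WT mice, and the mutants were close to each other. The means were 30.1 ± 5.02 and 15.7 ± 0.325 TPM (SD, n = 2 each), a mean 47.8% lower. The log2 fold change was -0.89 (SE 0.16, 95% interval -1.26 to -0.52), and the gene ranked 88 of 13652 by p and did not pass the test (limma adjusted p = 0.0641). It passed when only genes averaging 5 TPM or more were tested (limma adjusted p = 0.0442) and with robust eBayes (limma adjusted p = 0.0421), but it was called in only 3 of 16 alternatives. It did not pass without a filter on low TPM (limma adjusted p = 0.272), without WT mouse 2 (limma adjusted p = 0.176) or without WT mouse 1 (limma adjusted p = 0.0694). Its fold change lay between -1.05 and -0.72 in the 16 alternatives.

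*Fgfr1* (chromosome 8, forward strand, 25518759 to 25575718) was at 28.3 and 37.7 TPM in the WT mice and at 39.0 and 39.6 TPM in the *Kdm3b*+/- mice. Both *Kdm3b*+/- mice lay above both WT mice, but WT mouse 2 was close to them. The log2 fold change of 0.26 had a 95% interval from -0.12 to 0.64 (limma adjusted p = 0.449), and it was 0.06 without WT mouse 1 and 0.46 without WT mouse 2. *Fgfr2* (chromosome 7, reverse strand, 130162451 to 130266808) was at 14.1 and 17.9 TPM in the WT mice and at 15.1 and 22.1 TPM in the *Kdm3b*+/- mice, with a log2 fold change of 0.19 and a 95% interval from -0.28 to 0.65 (limma adjusted p = 0.665). *Fgfrl1* (chromosome 5, forward strand, 108694229 to 108706950) codes for 529 residues in a GENCODE transcript of 7 exons, against 802 to 840 residues for the 3 receptors with a kinase domain. It was at 9.29 and 12.2 TPM in the WT mice and at 9.02 and 11.6 TPM in the *Kdm3b*+/- mice. Its values overlapped, and its log2 fold change of -0.05 (95% interval -0.49 to 0.38, limma adjusted p = 0.907) took the other sign under 3 of the unit and scaling alternatives.

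The shares of the receptor transcripts lay further apart between genotypes than between mice of 1 genotype for *Fgfr3* and *Fgfr1*. *Fgfr3* held 38.5% and 37.7% of the TPM summed over the 3 receptors in the WT mice, against 22.8% and 20.1% in the mutants. The means were 38.1 ± 0.528% and 21.4 ± 1.92% (SD, n = 2 each), 16.7 percentage points lower in the *Kdm3b*+/- mice and 15.3 to 18.0 points lower when each library was left out. *Fgfr1* held 41.0% and 42.2% in the WT mice, against 55.7% and 51.2% in the mutants. The summed TPM of the receptors overlapped between groups, at 69.0 and 89.2 in the WT mice, against 70.0 and 77.2 in the mutants. The ratio of *Fgfr3* to *Fgfr1* was 0.937 and 0.894 in the WT mice, against 0.409 and 0.392 in the mutants. A share of 3 values rises when another falls, and the shares are given as a description, with no test.

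**Figure D3:**
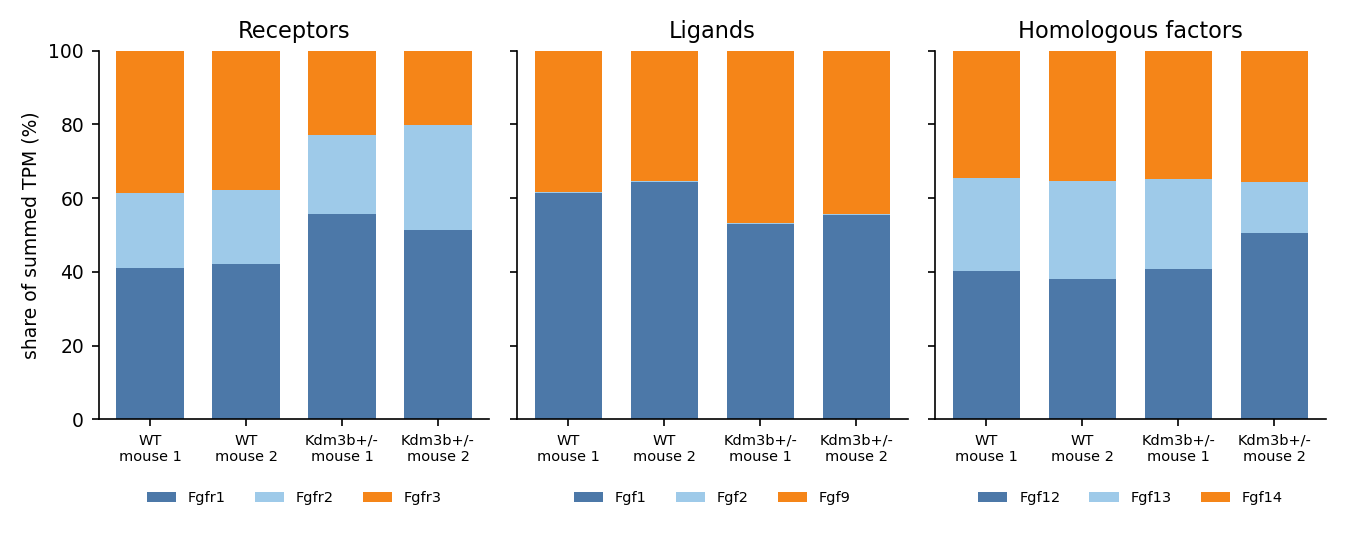
Share of the summed TPM (vertical axis, %) held by each gene within the receptors, the ligands and the homologous factors, 1 bar per library. *Fgfr3* is at 38.5% and 37.7% in the WT mice and at 22.8% and 20.1% in the *Kdm3b*+/- mice, and *Fgf13* is at 13.8% in *Kdm3b*+/- mouse 2.

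The genes whose pattern over the 4 libraries was nearest to that of *Fgfr3* were *Pdk4*, *Bcat1* and *Aldh6a1*, at distances of 0.04 on the log2 scale. *Pdk4* was at 6.13 and 8.10 TPM in the WT mice and at 3.21 and 3.03 TPM in the *Kdm3b*+/- mice. *Aldh6a1* was at 61.2 and 70.8 TPM in the WT mice and at 35.6 and 34.3 TPM in the *Kdm3b*+/- mice. In all, 31 genes lay within 0.1 of *Fgfr3*, and 180 lay within 0.1 of *Fgf1*, of which *Zfp641*, *Cacna2d3* and *Atp13a4* were nearest at 0.03.

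*Fgfr3* is enriched in astrocytes, so its values are set beside glial markers. Of the 8 astrocyte markers, 6 had a lower mean in *Kdm3b*+/- mice, 4 of them without overlap, where 60.4% of all tested genes had a lower mean and 32.0% were lower without overlap. Their summed TPM was 1458 to 1558 in the WT mice and 1260 to 1496 in the *Kdm3b*+/- mice. *Aldh1l1*, a pan-astrocyte enzyme, was 0.69 lower on the log2 scale without passing the test (limma adjusted p = 0.127), whereas the water channel gene *Aqp4* rose by 1.10 (limma adjusted p = 0.0329). Of the 6 Bergmann glia markers, 4 were lower and 2 higher without overlap, against 32.0% and 19.2% of all tested genes, with a summed TPM of 700 to 982 in the WT mice and 657 to 663 in the *Kdm3b*+/- mice. *Fabp7*, a fatty acid binding protein of radial glia, rose by 1.49 (limma adjusted p = 0.0133). The lower markers were *Gdf10* at -1.03, *Timp4* at -0.72, *Slc1a3* at -0.47 and *A2m* at -0.28, and the other higher one was *Hopx* at 0.53. All 6 were higher in WT mouse 1 than in WT mouse 2, and the sum of 982 TPM was that of WT mouse 1. In WT mice 1 and 2, *Gdf10* was at 51.7 and 25.7 TPM, *Timp4* at 582 and 420 TPM and *Slc1a3* at 169 and 124 TPM. The size of these lower fold changes thus leaned on WT mouse 1. Apart from *Fabp7*, no Bergmann glia marker passed the test. The *Fabp7* call was lost without either WT mouse (limma adjusted p = 0.0694 and 0.0795), and that of *Aqp4* without WT mouse 1 (limma adjusted p = 0.0723). None of the 14 markers was at 0. The part of these cells in the *Fgfr3* values was not tested, and in bulk tissue fewer cells of a type cannot be told apart from less RNA per cell. Granule cell markers summed to 4404 and 5301 TPM in the WT mice and to 4537 and 5035 TPM in the *Kdm3b*+/- mice.

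Of the 17 other FGF family genes, 5 were tested with limma and 0 were DEX genes, although 2 were lower at an unadjusted p under 0.05, where 17.0% of all tested genes reached that p in either direction. All 5 had a lower mean in *Kdm3b*+/- mice, as did 60.4% of all tested genes. Their median of -0.35 was -0.23 without WT mouse 1, -0.72 without WT mouse 2 and -0.08 over 14 genes without a filter on low TPM. *Fgf22*, which organizes excitatory presynaptic terminals, was the most abundant at 24.6 and 19.1 TPM in the WT mice, against 13.8 and 15.5 TPM in the mutants. The *Fgf22* difference of -0.54 (SE 0.17, log2) did not pass the test (limma adjusted p = 0.191). *Fgf7* had the lowest value at -0.62 and *Fgf18* the highest at -0.10. *Fgf7* was at 3.30 and 1.52 TPM in the WT mice and at 1.21 and 1.09 TPM in the mutants. These levels were near the minimum for testing, and WT mouse 1 stood apart. *Fgf6*, *Fgf8* and *Fgf21* were listed at 0 in all 4 libraries.

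Of the 18 coreceptors and extracellular binding partners, 12 were tested, 0 were DEX genes, 4 were lower at an unadjusted p under 0.05 (17.0% of all tested genes in either direction) and 9 had a lower mean (60.4% of all tested genes). Their median of -0.18 was -0.04 over 18 genes without a filter, -0.09 without WT mouse 2 and -0.28 without *Kdm3b*+/- mouse 2. *Gpc1*, a heparan sulfate proteoglycan, was lowest at -0.66 (limma adjusted p = 0.197), and *Gpc3* was highest at 0.27. Of the 19 enzymes that make or edit heparan sulfate, 16 were tested, 0 were DEX genes and 2 were lower at an unadjusted p under 0.05. The 2 were 12.5% of those tested, beside 17.0% of all tested genes in either direction. The median was -0.12 and ran from -0.22 without *Kdm3b*+/- mouse 2 and -0.21 without WT mouse 1 to -0.08 without *Kdm3b*+/- mouse 1 and -0.04 without WT mouse 2. Over all tested genes, the median in those settings was -0.09, -0.10, -0.05 and -0.04, in that order. The enzyme genes ranged from *Sulf2*, a sulfatase that trims the chains outside the cell, at -0.53 to *Hs3st1* at 0.15. All 27 adaptors and kinases were tested, 0 were DEX genes and 5 were lower at an unadjusted p under 0.05, or 18.5%, beside 17.0% of all tested genes in either direction. The median was -0.13, but -0.03 without WT mouse 2 and -0.05 without *Kdm3b*+/- mouse 1. The median over all tested genes was -0.07, -0.04 and -0.05 in the same settings. The genes ranged from *Plcg1*, the phospholipase recruited to the receptor, at -0.84 (limma adjusted p = 0.183) to *Hras* at 0.18.

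Of the 18 feedback inhibitors and transcriptional targets, 16 were tested and 1 was a DEX gene, where 0.461% of all tested genes were. *Ccnd1*, which encodes the cell cycle protein cyclin D1, rose from 5.23 and 6.96 TPM (WT) to 15.0 and 13.9 TPM (*Kdm3b*+/-), with a log2 fold change of 1.13 (SE 0.18, limma adjusted p = 0.0360). The call was lost without WT mouse 1 (limma adjusted p = 0.0832) or without WT mouse 2 (limma adjusted p = 0.0642), and the fold change lay between 0.96 and 1.31 in 16 alternatives. *Egr1*, an immediate early gene, was lowest at -0.95 and did not pass (limma adjusted p = 0.114), and the list's median of -0.09 had no stable sign, at -0.47 without WT mouse 1, 0.07 without WT mouse 2, -0.03 without *Kdm3b*+/- mouse 1 and -0.27 without *Kdm3b*+/- mouse 2. Of the 8 sodium channel genes, the partners of the homologous factors, 6 were tested and 0 were DEX genes. At an unadjusted p under 0.05, 1 of the 6 was lower (16.7%), against 17.0% of all tested genes in either direction. The median was 0.09, and 0.05 without WT mouse 1, and the alpha subunit gene *Scn2a* was highest at 0.26. The 5 gene models that overlap one of the 10 genes were at 0.868 TPM or lower in every library.

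**Figure D4:**
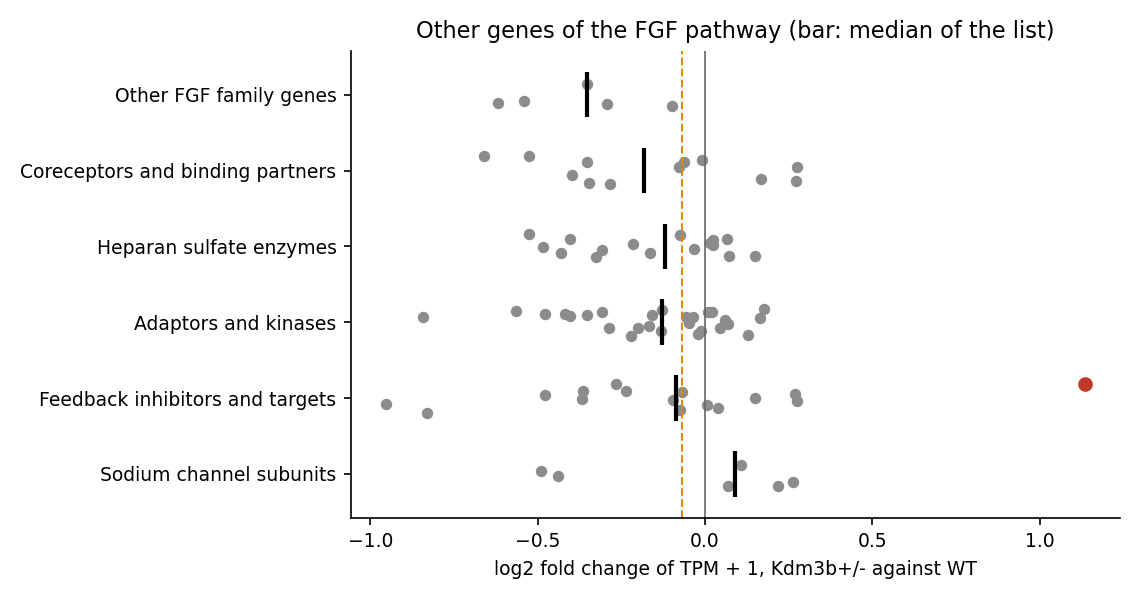
Log2 fold change of TPM + 1 in *Kdm3b*+/- against WT mice (horizontal axis) for each tested gene of 6 lists of the FGF pathway (rows), with black bars at the list medians. Red marks *Ccnd1*, the 1 DEX gene, at 1.13, and the dashed line the median of all tested genes at -0.07. The medians run from -0.35 for the other FGF family genes to 0.09 for the sodium channel genes.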

How the data were processed

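Bulk RNA-seq was made from 2 WT and 2 *Kdm3b*+/- mice, and samples were grouped by the genotype in the labels. The authors trimmed reads, aligned them with STAR and quantified genes with StringTie, and the genome build and tool versions are not given in the sources used here. They deposited 1 table per library. Coverage, as deposited by the authors, is the mean read depth over a gene and is not normalized. For FPKM and TPM, as deposited, the authors divided by gene length and by library size. TPM was used for every result and summed over entries sharing a Gene ID, although none of the 10 genes had more than 1 entry. Of the Gene IDs, 24462 had a symbol in a RefSeq table of GRCm38.p6, and 99.6% were on the chromosome it gives, 90.5% starting no more than 1 kb away. Coordinates are those of the deposited tables. Aligned bases were taken from the most frequent ratio of coverage to FPKM.

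Genes averaging 1 TPM or more were tested on log2(TPM + 1) with limma 3.58.1 (lmFit, eBayes with trend) in R 4.3.3, with genotype as the only term and Benjamini-Hochberg adjustment over 13652 genes. The DEX call needed a fold change above 1.2 and an adjusted p below 0.05. The study used DESeq2 on counts, which was not repeated since TPM values are not counts. Robust fits used statmod 1.5.0, and tables and figures used Python 3.11.15, NumPy 2.4.6, pandas 2.3.3 and Matplotlib 3.10.9. The script was tested on simulated data. A fold change on this scale understates the change of low genes, and with 2 mice per group the p-values lean on a spread shared across genes.

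The 10 genes and all lists were chosen with earlier results of these data known. Named in each list were the DEX genes, the tested genes with the highest and lowest fold change and, for the genes dwelt on, the 3 genes nearest in pattern. The result of 1 gene that this rule names is not reported here. Values of *Fgf22*, *Aldh1l1*, *Fabp7*, *Aqp4* and the other Bergmann glia markers beyond that rule were picked after the values were seen. Alternatives were a pseudocount of 0.1, FPKM, no filter, a minimum of 5 TPM, quantile normalization, median-ratio scaling, the highest entry per Gene ID, robust eBayes, eBayes without trend, a block by replicate number, adjusted p alone, a log2 fold change over 1.2, and each library left out in turn.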

Additional observations from a re-analysis of the deposited data

How the results depend on the processing

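*Fgfr3*, *Fgf1*, *Fgf13* and *Fgfr1* kept their direction in all 16 alternatives. *Fgfr3* was called with a minimum of 5 TPM and with robust eBayes, so that 1 of the FGF genes was called, lower, under either setting. *Fgfrl1* turned to 0.0054 with FPKM, 0.013 with median-ratio scaling and 0.062 with quantile normalization, and *Fgf9* to 0.021 with quantile normalization. With each library left out in turn, fold changes ran from -0.20 to 0.039 for *Fgf9*, -0.060 to 0.12 for *Fgf12*, -0.37 to 0.027 for *Fgf14*, -0.075 to 0.45 for *Fgfr2*, -0.24 to 0.13 for *Fgfrl1*, -0.77 to -0.41 for *Fgf1* and -1.05 to -0.72 for *Fgfr3*, the lone library being assumed to vary like the other genotype. The FGF genes called, all lower, then numbered 0 to 1, which was *Fgf13* without *Kdm3b*+/- mouse 1. *Ccnd1*, *Aqp4* and *Fabp7* were called in 11, 12 and 13 of the 16 alternatives.

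DEX genes over all genes numbered 63, with 16 higher and 47 lower. They numbered 38 (26 lower) with FPKM, 1 (0 higher and 1 lower) without a filter, 37 (10 higher and 27 lower) without a trend, 33 (8 higher and 25 lower) above a log2 fold change of 1.2, and 92 (28 higher and 64 lower) with robust eBayes. Leaving out a library gave 21 to 188, with 7 to 42 higher and 14 to 146 lower. The cause of these changes was not tested, except that leaving out a library leaves 3.

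Mice bear the numbers 1 and 2 within each genotype, but same-numbered mice are different animals, with a correlation of their deviations of 0.12. With the replicate number as a block, 600 genes were called (173 higher and 427 lower), 4.39% of those tested. Among them were 2 of the FGF genes, both lower, *Fgf1* (limma adjusted p = 0.0399) and *Fgfr3* (limma adjusted p = 0.0126).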
